A study of Mus musculus with 4 samples.

Results

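Of the 21090 genes in the expression table, 10 genes of MHC class I antigen presentation were examined. They were taken by name, as the heavy chains H2-K1 and H2-D1, the light chain B2m, the peptide transporter subunits Tap1 and Tap2, tapasin (Tapbp), the immunoproteasome subunits Psmb8, Psmb9 and Psmb10, and the checkpoint ligand Cd274 (PD-L1). All 10 were in the table and all 10 passed the filter on low values (mean RPKM of at least 1), which left 10871 genes for testing.

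MHC class I molecules carry peptides from inside a cell to its surface, where CD8+ T cells inspect them. Proteasomes cut proteins into peptides, the Tap1 and Tap2 heterodimer pumps these into the endoplasmic reticulum, and tapasin holds the heavy chain and B2m beside the transporter until a fitting peptide is bound. Interferon gamma is the best known inducer of the pathway, acting in part through Irf1 and Nlrc5, and also induces Cd274, the ligand of the inhibitory T cell receptor PD-1.

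RNA-seq was run on 4 mouse mammary tumor lines, 1 library per line. They go back to a single primary tumor, which had spread to the lung, of a mammary gland in a C57BL/6 mouse carrying Pik3ca H1047R, Trp53 R270H and MMTV-Cre, in which Cre is driven by the mouse mammary tumor virus promoter. The 2 controls were the parental line and a vector control line. The 2 knockout lines were made with a lentivirus encoding Cas9, puromycin resistance and 1 guide RNA against S100a4, aimed at exon 3 in 1 line and exon 2 in the other, and were selected on puromycin. In the titles 3 lines are called 307 and the exon 2 knockout is called 308, whereas the study describes 1 starting line. The sources used here do not say whether the lines were clones, what the vector control line carried besides the vector, the age of the mouse or the batch of any library. With 1 library per line, p-values measure only the spread between these 4 libraries, which may in part be technical.

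Expression is given as RPKM, a read number divided by the gene's length and by the library's total of reads. S100a4, the edited gene, stood at 3576 in parental cells and 4741 in vector control cells, against 1136 and 1105 in the exon 3 and exon 2 knockouts. Its transcript was lower in both knockouts, by a log2 change of -1.88 (SE 0.31, limma adjusted p = 0.0731, and 0.0013 with a robust prior). This is a level of RNA only. The study reports truncating mutations in most S100a4 transcripts of the knockout lines, and loss of the protein by Western blot. Reads in genes numbered between 14635449 and 20435279 per library. The label of a mammary tumor line was set against marker genes. The epithelial marker Epcam stood at 0.304 to 0.657 RPKM, and 5 of 7 epithelial markers were below the filter. The keratins Krt8 (27.5 to 78.9) and Krt18 (6.10 to 60.2) were present, and the mesenchymal filament gene Vim was high (1362 to 2418). Of 15 immune cell markers in the table, 9 were at 0 in all 4 libraries and Ptprc (CD45) stood at no more than 0.0101. The summed RPKM of the immune list was 3.91 to 5.01 in controls and 12.03 to 13.8 in knockouts. Most of it was Cd68, a lysosomal protein gene that is also used as a macrophage marker. Cd68 stood at 4.92 in the parental and 3.36 in the vector control cells, whereas exon 3 and exon 2 knockout cells had 11.5 and 13.2 (limma adjusted p = 0.105, and 0.034 with a robust prior). The defining lymphocyte markers Cd3e, Cd4, Cd8a and Ncr1 were at 0 in every library.

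The promoters of the heavy chain genes and of B2m hold the elements through which class I transcription is best known to be regulated. They are shown because these genes carried most of the transcript of the set and were all higher in both knockouts than in both controls. The first pair of stretches is given from RefSeq (GRCm38.p6) on the strand of the gene. H2-K1 lies at chr17:34000429-34000457, minus strand, from -110 to -82 relative to its annotated start. H2-D1 lies at chr17:35262924-35262952, plus strand, from -170 to -142 relative to its start, inside the first exon of a longer annotated transcript (H2-D1-202). Capitals mark the kappa B motif and the site for interferon regulatory factors.
H2-K1: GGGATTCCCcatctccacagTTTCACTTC
H2-D1: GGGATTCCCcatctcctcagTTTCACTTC
These 29-base stretches shared 28 bases and differed by A17T, the H2-K1 base first and counted from the first base of that motif. Over the 110 bases from the kappa B motif to the annotated start of H2-K1, 97 were identical (88.2%).

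The B2m promoter is printed from -170 to -2 relative to the annotated start, at chr2:122147517-122147685, plus strand. Capitals mark, in order, an interferon-stimulated response element core, a CRE core and a CCAAT box, the first and last of them read on the opposite strand.
B2m: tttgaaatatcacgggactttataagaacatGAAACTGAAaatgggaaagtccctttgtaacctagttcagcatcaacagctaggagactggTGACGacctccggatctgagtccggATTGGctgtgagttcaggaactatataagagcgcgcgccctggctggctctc
The motifs given here were read on both strands in the 250 bases before the start, in 32851 RefSeq promoters and in the 9 members with an entry. No printed motif overlapped another. GGGATTCCC was found in 0.301% of promoters and in H2-K1 and H2-D1. TTTCACTTC was found in 0.402% of promoters and in the same genes. TTCNNTTTC was found in 7.13% of promoters and in B2m and Cd274. TGACG was found in 17.8% of promoters and in H2-K1, H2-D1, B2m, Tap1 and Psmb9. CCAAT was found in 33.8% of promoters and in 6 members. Tap1 and Psmb9 are transcribed away from each other, with 225 bases between their RefSeq starts, while the GENCODE M21 genes overlap. A match is a description of these letters and was not tested as a binding site. Only these letters were searched, so other forms of a kappa B site, in B2m or elsewhere, were left unmarked and uncounted.

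Class I transcripts were abundant in all 4 lines. RPKM is per length, so levels can be set side by side between genes, as far as the gene lengths behind the table are right. B2m had the highest level of the set in every library and ranked between 4 and 7 among all genes. H2-D1 was above H2-K1 in every library, and ranked between 23 and 79. That order rests on the lengths. H2-D1 had 1089 bases, its annotated coding length. H2-K1 had 1492, the smallest length that gave whole reads, while its longest coding sequence has 1110. H2-K1 had more recovered reads in the parental line (23129 against 19545), the vector control (22087 against 19773) and the exon 3 knockout (39041 against 37810). In the exon 2 knockout it had fewer (27122 against 29169). The transporter, Psmb9 and Psmb10 stood between 29.1 and 159 RPKM. Cd274 had the lowest level in every library, 1.65 to 6.45 RPKM, from 45 to 143 reads.

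**Figure D1:**
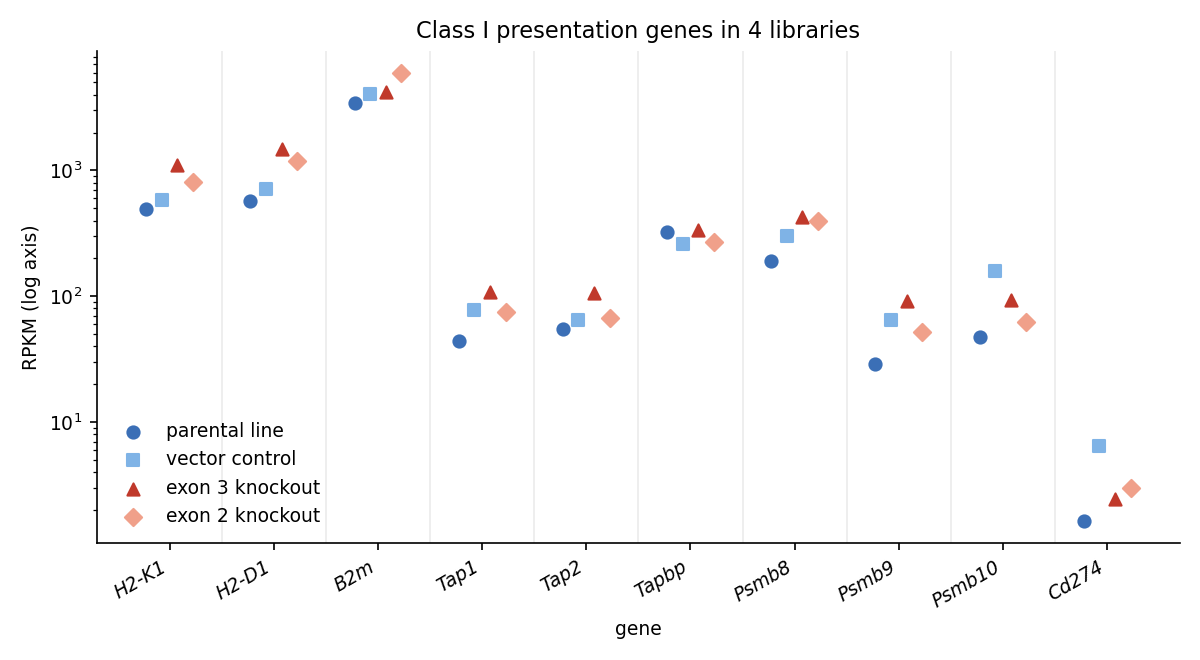
RPKM (log axis) of the 10 class I presentation genes, with 1 point per library: parental line, vector control, exon 3 knockout and exon 2 knockout. Both knockouts lie above both controls for H2-K1, H2-D1, B2m, Tap2 and Psmb8, while Psmb10 and Cd274 are highest in the vector control.

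The comparison of the 2 knockouts with the 2 controls asks what differed once S100a4 had been edited. The heavy chain genes had the largest log2 changes of the set. In bulk RNA, fewer cells of a kind and less RNA per cell cannot be told apart. H2-D1, the D locus heavy chain on chromosome 17, stood at 575 RPKM in parental cells and 715 in vector control cells, against 1479 and 1192 in the exon 3 and exon 2 knockouts. Both knockouts were above both controls, and the mean was 645 ± 99.2 in controls and 1335 ± 203 in knockouts (SD, n = 2 each). Its log2 change was 1.05 (SE 0.31), with a limma adjusted p of 0.138.

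H2-K1, the K locus heavy chain, stood at 496 and 583 in the parental and vector control lines, and at 1115 and 809 in the exon 3 and exon 2 knockouts. The order of the libraries was that of H2-D1, with the exon 3 knockout highest and the parental line lowest. The log2 change was 0.82 (SE 0.31, limma adjusted p = 0.20). Summed over both heavy chains, RPKM was 1071 in the parental and 1298 in the vector control cells, whereas exon 3 and exon 2 knockout cells had 2594 and 2001. Reads of near-identical class I genes may have been divided between them, and the counting rule is not stated in the sources used here. H2-T10 and H2-T22 had nearly equal reads, with 2739 and 2743 reads in parental cells and 4408 and 4421 in vector control cells, against 4039 and 4047 with the exon 3 guide and 3194 and 3201 with the exon 2 guide. H2-Q6 and H2-Q7 did not, with 604 and 717 reads in parental cells and 261 and 640 with the exon 2 guide. How reads were divided between H2-K1 and H2-D1 was not tested.

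B2m, the invariant light chain on chromosome 2, stood at 3416 and 4038 in the parental and vector control lines, and at 4165 and 5936 in the exon 3 and exon 2 knockouts. The exon 3 knockout was above the vector control by a factor of 1.03 only, so the lack of overlap rests on a small gap there. The log2 change was 0.42 (SE 0.33, limma adjusted p = 0.497), and was -0.0034 after quantile normalization. The knockouts took opposite order for light and heavy chains. The ratio of the 2 heavy chains to B2m was 0.314 in the parental and 0.321 in the vector control cells, whereas exon 3 and exon 2 knockout cells had 0.623 and 0.337. The exon 3 knockout stood apart, while the exon 2 knockout lay near the controls. The ratio of H2-K1 to H2-D1 was 0.864, 0.815, 0.754 and 0.679 in the same order, lower in both knockouts. For each of these ratios the exact permutation p was 0.333 (two-sided), the smallest that 2 against 2 allows.

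The transporter subunits differed in whether the groups overlapped. Tap1 stood at 43.8 in parental cells and 78.2 in vector control cells, against 109 and 74.8 in the exon 3 and exon 2 knockouts. The exon 2 knockout lay just under the vector control, so the groups overlapped. The log2 change was 0.62 (SE 0.35, limma adjusted p = 0.359), and 0.20 without the parental line. Tap2 stood at 54.7 and 65.0 in the parental and vector control lines, and at 107 and 67.3 in the exon 3 and exon 2 knockouts. Here the exon 3 knockout was high and the other 3 libraries lay close together. The log2 change of Tap2 was 0.50 (SE 0.32, limma adjusted p = 0.410), and 0.17 without the exon 3 knockout. Tapbp, which bridges the transporter and the heavy chain, stood at 324, 259, 337 and 269 in the order parental line, vector control, exon 3 knockout, exon 2 knockout. Its groups overlapped, with a log2 change of 0.05 (SE 0.30, limma adjusted p = 0.941).

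Psmb8 was the only immunoproteasome subunit whose groups did not overlap. This gene, for the subunit that takes the place of Psmb5, stood at 190 in the parental and 303 in the vector control cells, whereas exon 3 and exon 2 knockout cells had 429 and 400. Its log2 change was 0.79 (SE 0.32, limma adjusted p = 0.222). Psmb9, which takes the place of Psmb6, stood at 29.1 in parental cells and 65.3 in vector control cells, against 91.9 and 52.1 in the exon 3 and exon 2 knockouts. The exon 2 knockout was below the vector control, and the log2 change was 0.65 (SE 0.41, limma adjusted p = 0.400), and 0.084 without the parental line. Psmb10, which takes the place of Psmb7 and lies on chromosome 8, stood at 47.6 and 159 in the parental and vector control lines, and at 93.3 and 62.9 in the exon 3 and exon 2 knockouts. Both knockouts lay between the controls, and the log2 change was -0.18 (SE 0.48, limma adjusted p = 0.855).

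The catalytic subunits of the constitutive proteasome gave a measure within each library. The ratio of Psmb8 to Psmb5 was 7.49 in the parental and 6.74 in the vector control cells, whereas exon 3 and exon 2 knockout cells had 8.68 and 11.9. The ratio of Psmb9 to Psmb6 was 0.15, 0.20, 0.240 and 0.297 in the same order. Both ratios were higher in both knockouts than in both controls, with the exon 2 knockout highest. The log2 difference of the Psmb8 ratio was 0.52, and became 0.29 after quantile normalization and 0.024 after centring by chromosome. That of the Psmb9 ratio was 0.61, and 0.32 after centring. These log2 differences were taken on log2(RPKM + 1). From the ratios of RPKM given above, that of Psmb9 to Psmb6 was 0.62. The ratio of Psmb10 to Psmb7 was 0.310, 0.693, 0.442 and 0.324, and the groups overlapped. The denominators differed between libraries as well. Psmb6 stood at 194 in parental cells and 326 in vector control cells, against 383 and 175 in the exon 3 and exon 2 knockouts. The smallest exact permutation p that these ratios could reach was 0.333.

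**Figure D2:**
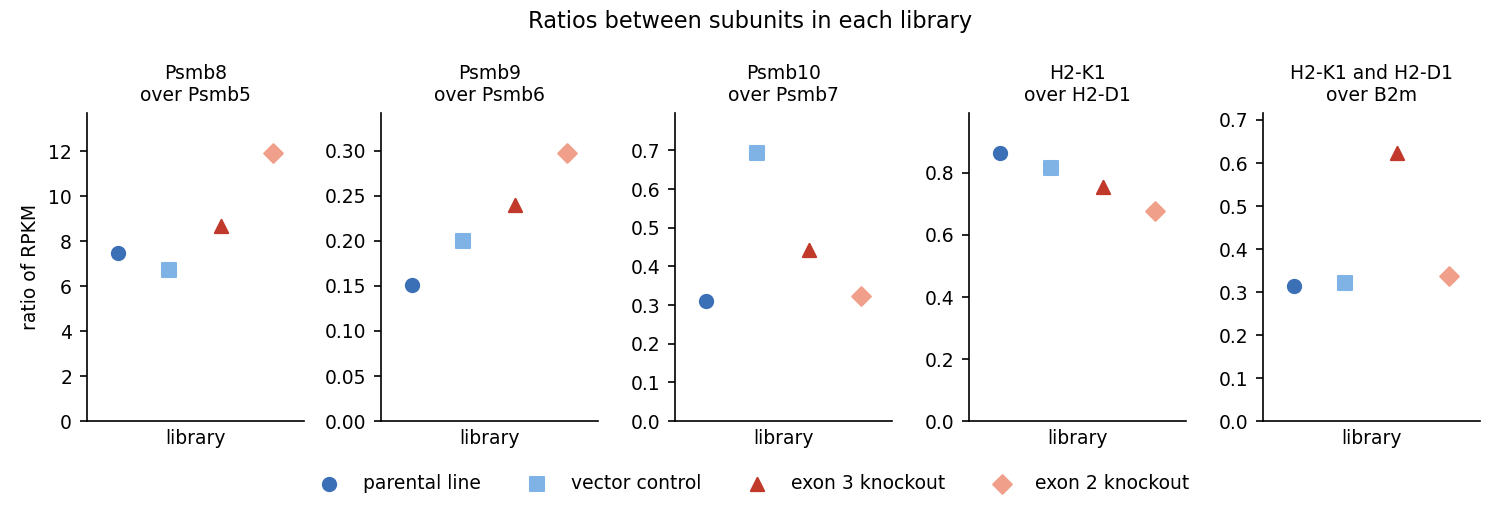
Ratios of RPKM between subunits in each library (linear axes from 0, 1 point per library, no error bars since each line has 1 library). Psmb8 over Psmb5 and Psmb9 over Psmb6 are highest in the exon 2 knockout (11.9 and 0.297), and the heavy chains over B2m are highest in the exon 3 knockout (0.623).

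Cd274, which is not part of the loading pathway but shares its inducers, stood at 1.65 and 6.45 in the parental and vector control lines, and at 2.44 and 3.01 in the exon 3 and exon 2 knockouts. Both knockouts lay between the controls. The log2 change was -0.26 (SE 0.47, limma adjusted p = 0.789), and was 0.07 after quantile normalization.

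Over the set, 0 of 10 members passed a limma adjusted p of 0.05, against 2 of all tested genes (0.0184%). The same held for voom on the whole reads recovered from the RPKM, with 0 of 10 members, and for limma with a robust prior, which called 285 genes. At an unadjusted p under 0.05, 3 members were called in limma and 3 in voom. In limma these were H2-K1, H2-D1 and Psmb8, all higher, where 5.32% of all tested genes were called higher. No member (0) was called lower, where the share of all genes was 13.8%. Both knockouts were above both controls in 5 of 10 members, against 21.9% of all tested genes. Both were below both controls in 0 of 10 members, against 31.2%. At least 2-fold apart in all 4 pairs were 0 members, where 0.267% of tested genes were higher and 1.73% lower. The median log2 change of the members was 0.56, against -0.08 over all tested genes. The calls depended on which control was used. Without the vector control, limma called H2-D1 (adjusted p = 0.0180), Psmb8 (0.0245) and Psmb9 (0.0261) higher among 451 genes called in all. Without the parental line it called Psmb10 lower (log2 change -1.05, adjusted p = 0.0424) among 788 genes, and in each case the lone control was assumed to vary like the knockouts.

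The controls themselves differed in these genes. In the vector control 9 of 10 members were above the parental line, Tapbp being the exception, where 63.4% of all tested genes were. The median log2 difference, vector control minus parental line, was 0.49 over the members and 0.16 over all tested genes. The controls also stood far apart in some mesenchymal and epithelial markers, which except for Krt18 were picked out after their values were seen. In parental and vector control cells, the collagen genes Col1a1 and Col1a2 stood at 670 against 6.93 and at 808 against 149 RPKM, and Fn1 (fibronectin) at 606 against 164. The smooth muscle actin gene Acta2 stood at 55.2 against 420 and Krt18 at 60.2 against 6.10. In all 5 of these markers both knockouts lay between the controls, and a wide gap between controls leaves more room for that. How many of all tested genes had this order was not computed. The remaining mesenchymal markers that were tested, Vim, Cdh2 and Pdgfrb, differed less between the controls. In the same order they stood at 2418 against 2060, 29.2 against 26.7 and 76.1 against 56.8 RPKM. The part of these marker differences in the results for the members was not tested. At least 2-fold higher in the vector control were 3 members, where 3.34% of all tested genes were. These were Psmb9 (2.24-fold, counting interval 2.05 to 2.45), Psmb10 (3.35-fold, 3.16 to 3.55) and Cd274 (3.91-fold, 2.78 to 5.59). The intervals are 95% intervals for counting error only. No member (0) was at least 2-fold lower, where 5.19% of tested genes were. In 5 members the change between knockouts and controls was larger than the gap between the controls. These were H2-K1, H2-D1, B2m, Tap2 and Psmb8, the same members whose groups did not overlap. The share of all tested genes was not computed for this count. The parental line had the lowest level in 9 of 10 members, a count for which no share of all tested genes was computed. Both knockouts were above that line in 9 members, against 37.8% of all tested genes. A comparison with that line alone would therefore give higher values. Psmb9 in the exon 3 knockout was 3.16-fold the parental line and 1.41-fold the vector control. Psmb10 in the exon 3 knockout was 1.96-fold the parental line and 0.586-fold the vector control. With 1 line on each side, no test of the controls against each other was possible.

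The knockouts differed less from each other than 2-fold in every member. The exon 3 knockout was above the exon 2 knockout in 8 of 10 members, the exceptions being B2m and Cd274. The share of all tested genes with that order was not computed. The median log2 difference, exon 2 minus exon 3 knockout, was -0.39 over the members and 0.05 over all tested genes. The ratio of exon 3 to exon 2 ran from 0.702 in B2m to 1.76 in Psmb9. At least 2-fold apart were 0 members, where 2.57% of all tested genes were higher and 2.43% lower in the exon 2 knockout.

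**Figure D3:**
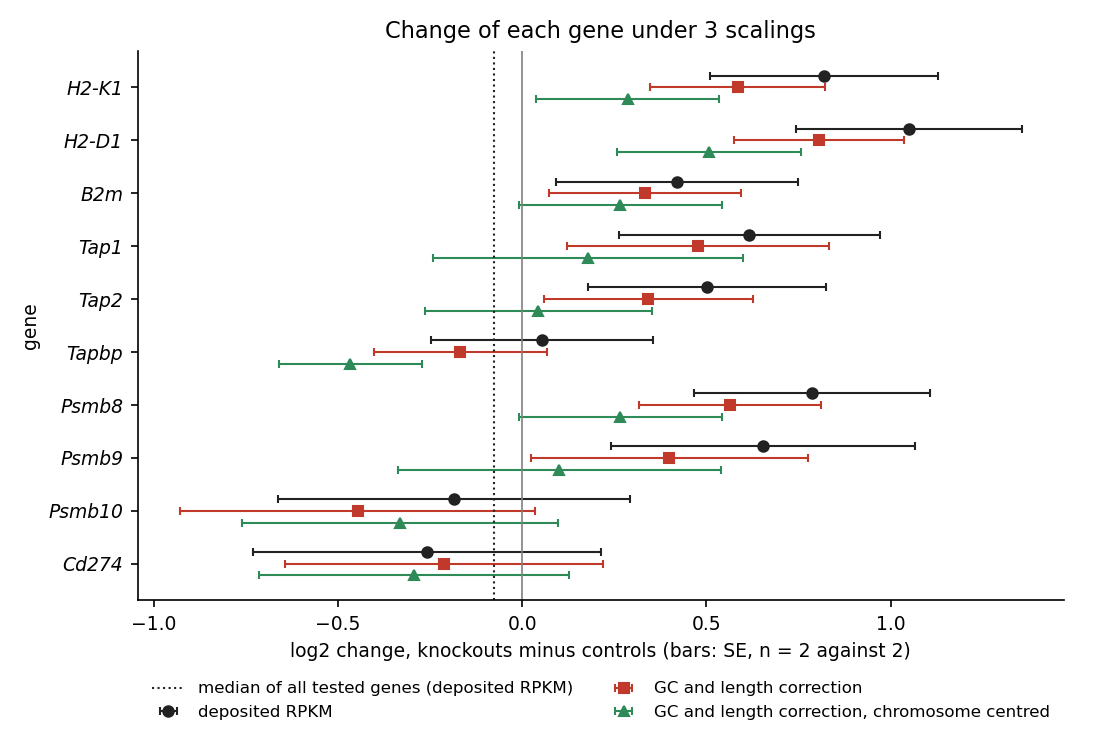
Log2 change of each class I presentation gene, knockouts minus controls, with its SE (n = 2 against 2), from the deposited RPKM, after correction for GC content and length, and after both that correction and centring by chromosome. H2-D1 has the highest value on each scale (1.05, 0.81 and 0.51), and Tapbp goes from 0.05 to -0.47.

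GC content moved with the change between knockouts and controls. Across 10773 genes with a coding sequence, Pearson's r of the log2 change with GC content was 0.458, as a description over genes that are not independent replicates. The members had a median GC content of 59.1% (49.4% to 62.7%), against 53.0% over the genes tested, and 8 of 10 lay above the latter. After each library was corrected for GC content and length, 8 of 10 members had a change closer to 0 and the median of the members was 0.37, against 0.02 over all tested genes. The corrected log2 change was 0.81 for H2-D1, 0.58 for H2-K1, 0.56 for Psmb8 and -0.17 for Tapbp. Over all genes, the median change was -0.68 in the eighth with least GC and 0.22 in the eighth with most.

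**Figure D4:**
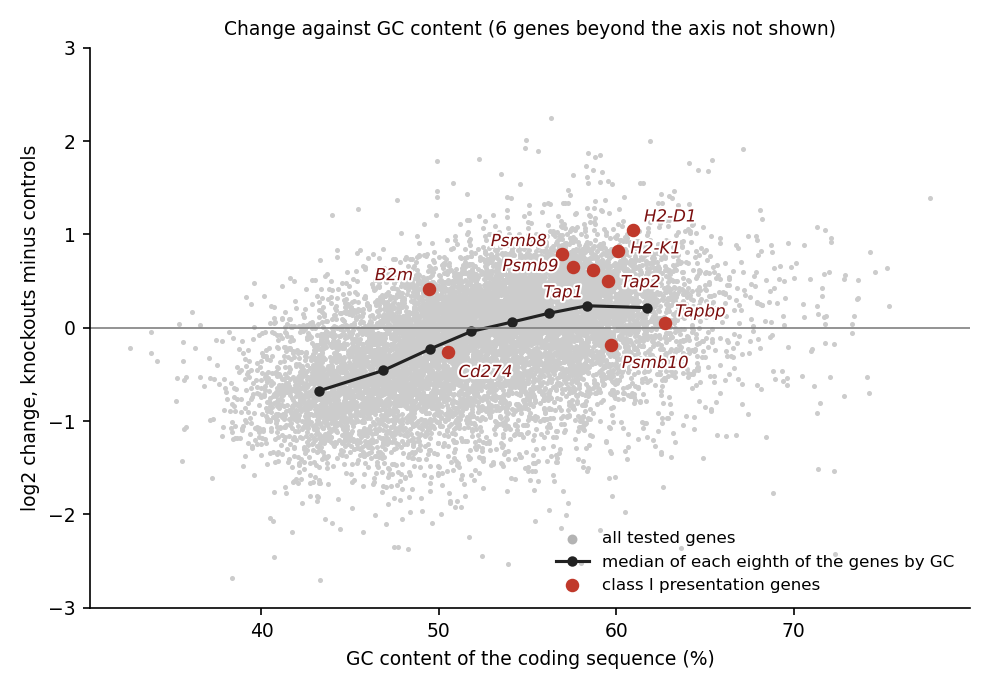
Log2 change, knockouts minus controls, against GC content of the coding sequence (%), with 1 point per gene, the median of each eighth of the genes by GC content as a line, and the class I presentation genes labelled. The line climbs from -0.68 to 0.22, and B2m (49.4% GC) is a member far above it at a low GC content.

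Of the 10 members, 7 lie in the MHC region of chromosome 17 (GRCm38, GENCODE M21). Psmb9, Tap1, Psmb8 and Tap2 follow one another between positions 34181987 and 34216321. H2-K1 lies at 33996017 to 34000347, Tapbp at 33915899 to 33929292, and H2-D1 at 35262730 to 35267499. B2m is on chromosome 2 (122147686 to 122153083), Psmb10 on chromosome 8 (105935735 to 105938444) and Cd274 on chromosome 19 (29367455 to 29388095). Among the 40 other tested genes between Tapbp and H2-D1 that were on no list used here, 33 were higher in both knockouts than in both controls and 0 were lower, against 21.9% and 31.2% of all tested genes. Their median log2 change was 0.53, and 0.43 after the correction for GC content and length. Those neighbours had a median GC content of 59.3%.

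Of the 523 tested genes of chromosome 17 other than the members, 240 (45.9%) were higher in both knockouts and 81 (15.5%) lower in both. Their median log2 change was 0.27, and 0.29 after the correction. The medians of the other 19 chromosomes ran from -0.50 to 0.15, and from -0.29 to 0.13 after the correction. In the exon 3 knockout the median of these chromosome 17 genes against the mean of the controls was 0.26, and the exon 2 knockout gave 0.26 as well. The controls differed in these genes too. Their median log2 difference, vector control minus parental line, was -0.13, against 0.16 over all tested genes. After the correction for GC content and length it was -0.23 in these chromosome 17 genes. Chromosome 17 was examined after its genes had been seen to stand apart, and what set its median was not tested.

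Centred on the median of its own chromosome in each library, H2-D1 had a log2 change of 0.78 (SE 0.27, limma adjusted p = 0.221) and H2-K1 of 0.55 (SE 0.28, limma adjusted p = 0.309). Psmb8 stood at 0.52, Tap1 at 0.35 and Tap2 at 0.24 on that scale. Tapbp had a value of -0.21, below 0. With the correction for GC content and length as well, the values were 0.51 for H2-D1, 0.29 for H2-K1, 0.27 for Psmb8 and 0.04 for Tap2. The 3 members on other chromosomes were B2m (0.27), Psmb10 (-0.33) and Cd274 (-0.30) on the same scale. Both knockouts then lay above both controls in 1 member, H2-D1, against 24.5% of all tested genes on that scale, and below both in 1, Tapbp, against 24.6%.

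**Figure D5:**
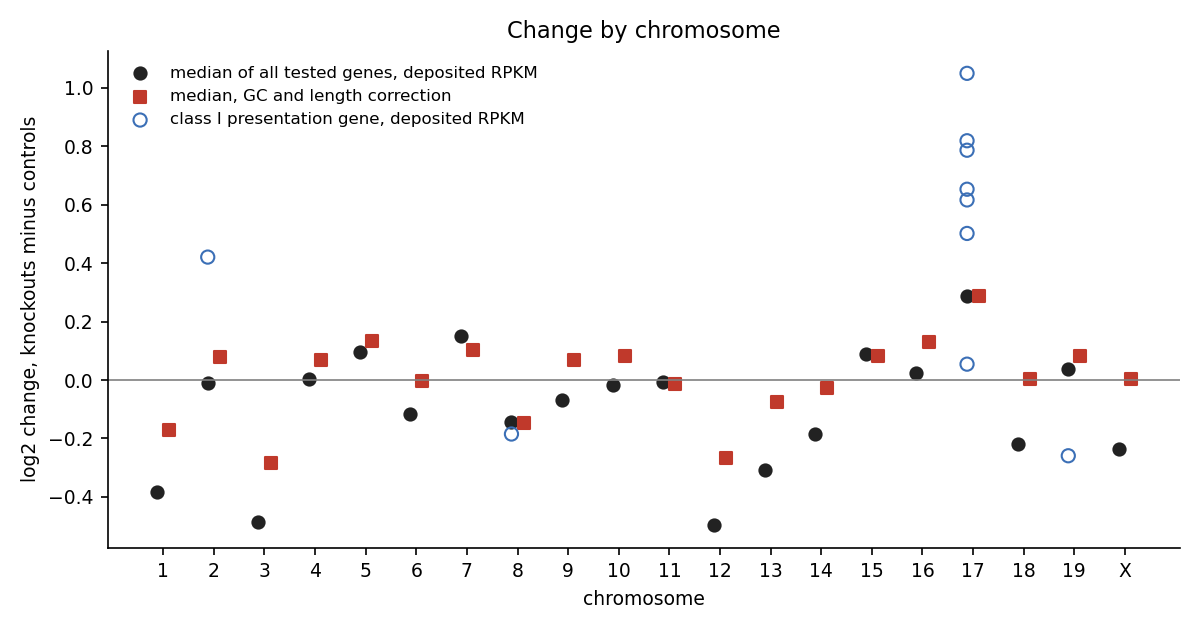
Median log2 change of all tested genes on each chromosome, knockouts minus controls, from the deposited RPKM and after correction for GC content and length, with each class I presentation gene as an open circle. Chromosome 17 has the highest median on both scales (0.29), and 6 of the 7 members on it lie above that median.

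Of 20 regulators that bind these promoters or switch on the pathway, 0 passed the limma adjusted p. In both knockouts 2 were above both controls and 9 below, against 21.9% and 31.2% of all tested genes. Their median log2 change was -0.34. Nlrc5, the transactivator of class I genes, stood at 5.95 and 9.86 in the parental and vector control lines, and at 5.03 and 4.24 in the exon 3 and exon 2 knockouts, lower in both knockouts. Its log2 change was -0.63 (SE 0.36, limma adjusted p = 0.355). Irf1 stood at 73.2, 131, 91.4 and 110 in the same order, with both knockouts between the controls. Nfkb1 had a log2 change of -0.89, Irf3 of 0.51 and Rela, a kappa B subunit, of 0.23, and in none of these did the groups overlap. Nlrc5 was lower in both knockouts while H2-D1, H2-K1 and Psmb8 were higher, and none of these differences passed the limma adjusted p.

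Among the interferon receptors and the Jak-Stat genes, 0 of 13 passed. Above both controls were 0 and below both 3, against 21.9% and 31.2% of all tested genes. The kinases Jak1 (-0.58) and Jak2 (-0.57) were among the 3 below. After the correction for GC content and length they stood at -0.0020 and 0.27.

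Other class I and class I-like genes were set beside H2-K1 and H2-D1. Of 20 listed, 18 were in the table and 12 were tested, of which 0 passed. Above both controls was 1 and below both were 2, against 21.9% and 31.2% of all tested genes. The median log2 change of the 12 was -0.04. H2-M3, which presents formylated peptides, stood at 39.1 in parental cells and 29.9 in vector control cells, against 44.1 and 49.8 in the exon 3 and exon 2 knockouts. Mr1, which presents microbial vitamin metabolites, had a log2 change of -0.55. H2-T24 stood at 6.66, 10.096, 1.79 and 2.53 in the order above, at least 2-fold lower in all 4 pairs. Its log2 change was -1.55 (SE 0.36, limma adjusted p = 0.105, and 0.026 with a robust prior), and it lies on the same chromosome as H2-D1. In 10 of the 12 tested genes the vector control was above the parental line, where 63.4% of all tested genes were.

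Of 13 remaining genes for loading and trimming of peptides, all tested, 0 passed. Above both controls were 2 and below both 6, against 21.9% and 31.2% of all tested genes. Their median log2 change was -0.29, and became 0.12 after the correction for GC content and length. The cytosolic peptidases Npepps and Tpp2 had log2 changes of -1.09 and -1.05, and -0.56 and -0.17 after the correction. Bcap31, which acts in export from the endoplasmic reticulum, stood at 0.34 and the leucine aminopeptidase Lap3 at 0.30. Of 9 genes for activation and assembly of the proteasome, 0 passed. Here 3 were above and 1 below both controls, against the same shares of 21.9% and 31.2%. Psme4, the nuclear activator PA200, was at least 2-fold lower in all 4 pairs, with a log2 change of -1.30 (SE 0.31, limma adjusted p = 0.105, and 0.027 with a robust prior) and of -0.39 after the correction. The assembly chaperones Psmg4 (0.84) and Psmg2 (0.52) were above both controls. Of the constitutive subunits Psmb5, Psmb6 and Psmb7, 0 of 3 passed and the groups overlapped in each, with log2 changes of 0.26, 0.04 and 0.11.

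Ligands that restrain or engage lymphocytes were set beside Cd274. Of 17 listed with it, 11 were tested and 0 passed. Above both controls were 0 and below both 4, against 21.9% and 31.2% of all tested genes. Cd200, the ligand of an inhibitory receptor on myeloid cells, stood at 6.92 and 3.67 in the parental and vector control lines, and at 0.102 and 1.59 in the exon 3 and exon 2 knockouts. Its log2 change was -1.85 (SE 0.47, limma adjusted p = 0.117, and 0.030 with a robust prior). The Cd200 values rest on 181 and 78 reads in the parental and vector control lines. In the exon 3 and exon 2 knockouts they rest on 2 and 30 reads, so counting error limits them. Pvr, a ligand of both activating and inhibitory lymphocyte receptors, had a log2 change of -0.73. Of 8 listed ligands that activate natural killer cells, 4 were in the table and 2 were tested. Above both controls were 0 and below both 0, against 21.9% and 31.2% of all tested genes, and 2 genes are too few to compare.

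Class II genes were mostly near 0 in these lines, with 3 of 10 tested. H2-DMa, which helps load class II molecules, stood at 17.8 in the parental and 16.2 in the vector control cells, whereas exon 3 and exon 2 knockout cells had 43.0 and 20.04. Its gene lies on chromosome 17 with the members, and its log2 change was 0.76 (SE 0.38, limma adjusted p = 0.294). Ciita, the class II transactivator, stood at no more than 0.0367 in any library.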

How the data were processed

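Total RNA of 4 mouse mammary tumor lines was sequenced. The submitters' processing notes name CASAVA 1.8 and GSNAP. The authors deposited 1 table of RPKM values for 21090 genes, on a linear scale. The counting rule and gene lengths are not given in the sources used here. From the steps of low values, whole reads were recovered for 100% of the genes above 0 (tolerance 0.001 reads). An annotated coding length gave whole reads for 59.9% of these genes and for 6 of 10 members. For the others the smallest length that gave whole reads was taken, so the 100% is no check of those lengths. Symbols were matched to GENCODE M21 (GRCm38) for 99.4% of genes.

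Values were analysed as log2(RPKM + 1), which understates the change of low genes. Genes with mean RPKM of at least 1 were tested with limma 3.58.1 (R 4.3.3; intensity trend; Benjamini-Hochberg adjusted p of 0.05), as 2 knockouts against 2 controls with no covariates. Groups came from the sample titles. Alternatives covered the pseudocount, filter, scaling, prior, GC content, length and each library left out. Centring by chromosome was chosen after seeing the data. The fits were tested on simulated data, as a check of the code only. The simulated libraries held no GC trend, no chromosome shift and little spread within a group, unlike the data here. The members and gene lists were chosen with earlier results of these data known. Named genes were the members, S100a4, 5 markers, the constitutive subunits, Nlrc5, Irf1 and, of each other list, the called genes, those 2-fold apart in all 4 pairs and up to 2 in each direction, ranked by the smallest of the 4 pairwise changes. Items withheld from the text are not reported here by name and enter only counts and medians.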

Additional observations from a re-analysis of the deposited data

Results flagged for a closer look

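Each of these genes lay above both controls in 1 knockout and below both in the other, and with 1 library per line that contrast could not be tested. This held for 16 of 107 listed genes tested (15%), for 7.88% of all tested genes and for 0 of the 10 members. Values are the log2 difference, exon 3 minus exon 2 knockout. Among class I and class II genes it was 1.05 for H2-Q4, 0.98 for H2-T23, 1.64 for H2-DMb1 and 3.14 for Cd74, the class II invariant chain. Cd74 stood at 2.02 and 5.16 RPKM in the parental and vector control lines, and at 16.7 and 1.01 in the exon 3 and exon 2 knockouts. Among loading and proteasome genes it was 0.73 for Calr, 1.12 for Psmb6 and -0.74 for Pomp. Among regulators and the Jak-Stat genes it was -0.59 for Nfyb, 0.40 for Nfkb2, 0.69 for Socs3, -0.60 for Ptpn11 and -0.54 for Pias1. Among ligands it was 0.78 for Icosl, 0.78 for Pvrl2 and 0.28 for Tnfrsf14. The mesenchymal marker Cdh2 had -1.60.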

How the results depend on the processing

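The median log2 change of the members stayed above 0 in all 16 settings, those without 1 library included. With a pseudocount of 0.1, limma called 1 gene, as it did after quantile normalization. It called 32 with a mean RPKM of at least 5 and 285 with a robust prior, 0 of them members. S100a4 passed in both (adjusted p = 0.018 and 0.0013) and after quantile normalization (0.036). H2-T24, Psme4, Cd200 and Cd68 passed with the robust prior. It called 0 with median ratio scaling, without a filter, with voom, with either correction for GC content and with either chromosome centring. Quantile normalization gave log2 changes of -0.0034 for B2m, -0.18 for Tapbp, 0.074 for Cd274, -0.19 for Psmb6, -0.14 for Psmb7 and -0.077 for Irf1, and 0.29 for the ratio of Psmb8 to Psmb5 (0.52 in the deposited scale). GC correction gave -0.16 for Tapbp, -0.11 for Psmb6 and 0.072 for Jak2. GC and length correction gave -0.17, -0.19 and 0.27 for the same genes. Without a filter the median of the other chromosome 17 genes was 0.052. At 3-fold, 1 member differed between the controls.

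Chromosome centring gave -0.21 for Tapbp, 0.024 and 0.32 for the log2 ratios of Psmb8 to Psmb5 and Psmb9 to Psmb6, and 0.0084 for the chromosome 17 median. GC and length correction with chromosome centring gave -0.47 for Tapbp, -0.17 for Psmb6, 0.19 for Jak2, -0.048 for Krt18, 0.21 and 0.27 for the ratios, and -0.013 for the chromosome 17 median, with 1 member above and 1 below both controls (24.5% and 24.6% of all tested genes). Centring sets the chromosome median near 0 by construction, and for the other differences the cause was not tested.

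With each library left out in turn, genes called ranged from 3 to 788, members above from 5 to 9 (31.3% to 37.8% of all tested genes), members below from 0 to 2 (40.8% to 47.3%) and members 2-fold apart in all pairs from 0 to 2 (0.938% to 2.16% higher and 3.23% to 7.57% lower). Log2 changes ranged from -0.11 to 0.22 for Tapbp, -1.05 to 0.68 for Psmb10, -1.0047 to 0.49 for Cd274, -0.14 to 0.66 for Psmb5, -0.52 to 0.61 for Psmb6, -0.18 to 0.40 for Psmb7, -0.38 to 0.45 for Irf1, -0.069 to 1.23 for Krt8 and -1.36 to 1.75 for Krt18. H2-K1, H2-D1, Tap1, Tap2, Psmb8 and Psmb9 stayed above 0 in every setting run, at no less than 0.29, 0.51, 0.18, 0.044, 0.27 and 0.084 in that order.

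No paired analysis was possible because the labels give the groups no shared replicate numbers. Cd274 rested on 45 to 143 reads per library, so counting error limits its values. The gene lengths behind the RPKM of 4 members are not annotated coding lengths.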
